A study of Mus musculus with 6 samples.

Results

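The genes described here are 9 genes of retinoid metabolism and signalling (Crabp1, Crabp2, Aldh1a1, Aldh1a2, Aldh1a3, Rbp4, Rarb, Rxrg and Stra6), taken by symbol from the gene table of every library, out of 41605 genes in that table. All 9 were found. Retinoids are vitamin A and its derivatives. Retinol travels in blood bound to the carrier RBP4, can enter cells through the membrane receptor STRA6, and is oxidised to retinaldehyde and then, by the retinaldehyde dehydrogenases ALDH1A1, ALDH1A2 and ALDH1A3, to retinoic acid. Inside the cell retinoic acid is bound by CRABP1 and CRABP2, and it acts through nuclear receptors, heterodimers of a retinoic acid receptor (here Rarb) and a retinoid X receptor (here Rxrg). In peripheral nerve, retinoic acid is known as a signal of development and of the response to injury.

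The sciatic nerve was taken from newborn mice (postnatal day 1, P1) and young adults (day 60, P60), and the dissociated cells of each age went into 3 libraries made with the 10x Genomics Chromium system, which counts captured RNA molecules by unique molecular identifiers (UMIs). Mice of both ages carried P0Cre (a Cre active in the Schwann cell lineage), the Cre-dependent reporter ReYFP and the ubiquitous reporter βAct-DsRed on the C57bl/6J background, with no treatment, and as many males as females were pooled. Cells were sorted for DsRed, and at P1 part of the DsRed and eYFP double-positive cells were removed in the sort, so the proportion of Schwann cells does not reflect that of the nerve. The question set by the design is how transcripts differ between the cell types of the nerve and between the newborn and the young adult animal.

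After a filter of 500 to 5000 genes per cell, 11735 cells remained at P1 and 12602 at P60, with 20092957 to 29371559 UMIs and a median of 3627 to 6840 UMIs per cell in a library. P60 replicate 3 stood apart, with 16.2% of cells above 10% mitochondrial counts against 2.97% and 4.84% in the other P60 libraries (9.56% to 13.6% at P1), and values without it are given where they alter a call. Pairs of libraries shared 14 to 33 cell barcodes, at most 0.952% of the smaller library. Cells were clustered at each age with the retinoid genes left out and named by marker genes as Schwann cells, endothelial cells, mural cells (pericytes and vascular smooth muscle) and the fibroblast-like cells of the endoneurium (inside the fascicles), the perineurium (their sheath) and the epineurium (the outer connective tissue). The marker sums followed the names at P60, where the 8 perineurial markers summed to 5619 to 5759 CPM (counts scaled to a total of 1000000) in perineurial cells. At P1 the same markers summed to 428 to 478 CPM in perineurial cells, below the sum of the 8 epineurial markers there (982 to 1044 CPM), so the perineurial name is less firm at P1. Fibroblast-like clusters with no layer are named by a leading gene, Ifitm1-led at P1 (953 cells) and Cxcl14-led at P60 (2559 cells), and the levels of 1 more at P60 (467 cells) are not reported here. At P1, 1020 cells with a median of 21.8% mitochondrial counts stayed unnamed, as did 407 cells with endothelial and mural markers at P60.

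Levels are CPM of UMIs summed over the cells of a group in each library, given as mean ± SD with n = 3 libraries per age. Levels across cell groups are a description without a test, since the groups were defined from the same cells. The change from P1 to P60 within a class was tested with edgeR on the summed counts of all genes (log2 change ± standard error, called below an adjusted p of 0.05). At P1 most of the UMIs of 8 of the 9 genes were in fibroblast-like cells. That share was 79.0% for Crabp1, 91.9% for Crabp2, 90.2% for Aldh1a1, 93.5% for Aldh1a2, 89.0% for Aldh1a3, 93.2% for Rbp4 and 86.6% for Stra6. Rxrg was the exception at P1, with 89.8% of its UMIs in Schwann cells, and Rarb was spread over fibroblast-like (55.2%) and Schwann cells (30.6%). At P60 the fibroblast-like share was 83.9% to 96.0% for Crabp2, Aldh1a1, Aldh1a3, Rbp4, Rarb and Stra6. It was 55.8% for Crabp1, with 32.7% in Schwann cells, and 48.4% for Aldh1a2, with the same share in immune cells. Rxrg had 27.2% of its UMIs in fibroblast-like and 55.4% in Schwann cells at P60.

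**Figure D1:**
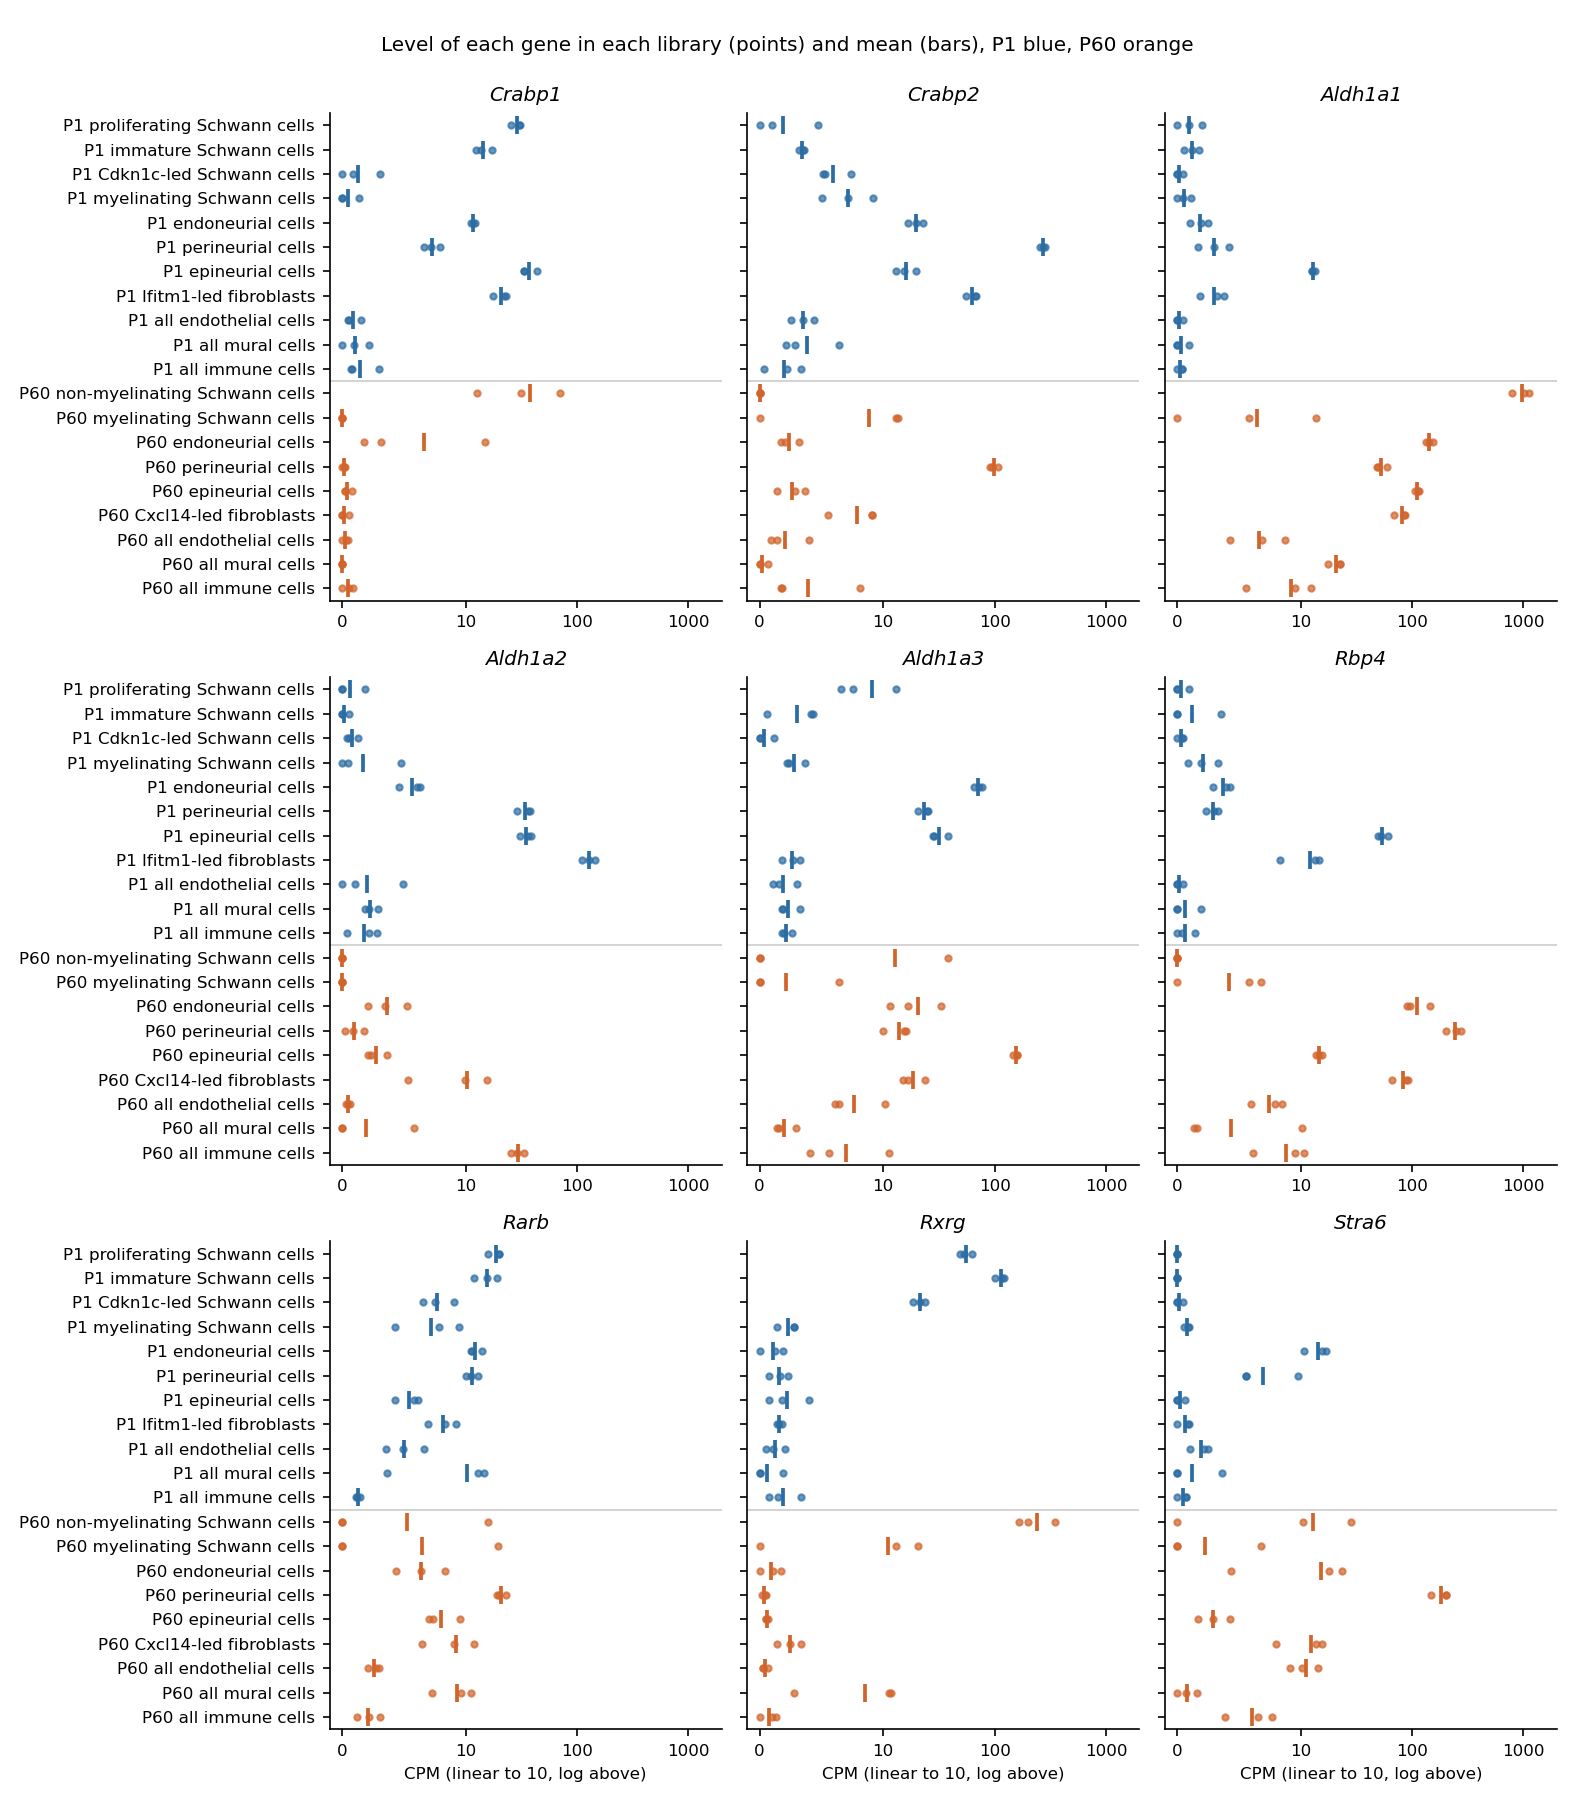
Level of the 9 genes (CPM, linear to 10 and logarithmic above) in the cell groups at P1 (blue, above the line) and P60 (orange); each point is 1 of 3 libraries and the vertical bar their mean. Crabp2 was high in perineurial cells at both ages, Stra6 and Rbp4 were high there at P60, and Aldh1a1 reached its highest level in non-myelinating Schwann cells at P60.

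Rbp4, the plasma carrier of retinol, had its highest level in different layers at the 2 ages. In epineurial cells it measured 60.6, 48.9 and 52.5 CPM in the P1 libraries and 13.6, 14.7 and 15.4 CPM in the P60 libraries. In perineurial cells it went from 2.97, 2.32 and 3.33 CPM at P1 to 245, 275 and 201 CPM at P60. Endoneurial cells held 2.90, 4.27 and 3.96 CPM at P1 and 96.4, 89.7 and 145 CPM at P60. The libraries of the 2 ages did not overlap in any of these layers. Rbp4 rose in perineurial cells (log2 change 6.38 ± 0.22, edgeR adjusted p = 3.94e-11) and in endoneurial cells (4.95 ± 0.22, edgeR adjusted p = 2.54e-10), and it fell in epineurial cells (-1.93 ± 0.16, edgeR adjusted p = 1.32e-07). The epineurial fall depended on where the cells without a layer were put. The Cxcl14-led cells of P60 had 82.4 ± 14.2 CPM of Rbp4 and the Ifitm1-led cells of P1 12.1 CPM on average, and with both counted as epineurial the change was 0.43 (edgeR adjusted p = 0.0612). At P60, 20.4% ± 3.01 of perineurial cells had an Rbp4 UMI after each cell was thinned to 1500 UMIs (42.2% unthinned, median 7155 UMIs), against 0.664% ± 0.208 of immune cells (2.79% unthinned, median 3732 UMIs), and a single perineurial cell held up to 33 UMIs. The order of the P60 means was perineurial, endoneurial and Cxcl14-led, the library ranges of the last pair overlapping.

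Rbp4 (ENSMUSG00000024990) lies on chromosome 19 at 38116629 to 38125281 of GRCm38 (GENCODE M21), on the minus strand. The RefSeq table (GRCm38.p6) gave start sites for 7 of the 9 genes, with 13 windows in all. In the 250 bases before each start, half-sites of the retinoic acid response element (the sequence AGGTCA, its form AGTTCA, its form GGGTCA and its form GGTTCA, on either strand) were searched for, since several genes of the pathway are textbook targets of retinoic acid. A half-site is common, present in 38.6% of all 32851 windows of that length, and 5 of the 13 windows of these genes held at least 1. The window of Rbp4 that held one, at chr19:38125322-38125571 on the minus strand, is shown 5′ to 3′ with the half-site in capitals, 53 bases before the start.
Rbp4: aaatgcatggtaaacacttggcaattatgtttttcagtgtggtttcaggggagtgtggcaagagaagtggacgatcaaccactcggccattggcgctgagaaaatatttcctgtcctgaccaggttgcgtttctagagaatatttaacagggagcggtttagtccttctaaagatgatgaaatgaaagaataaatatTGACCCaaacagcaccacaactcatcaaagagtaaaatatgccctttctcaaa

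Stra6, the membrane receptor that takes up retinol from RBP4, was a gene of the adult perineurium. In perineurial cells the P1 libraries held 9.74, 5.58 and 5.56 CPM and the P60 libraries 202, 200 and 148 CPM, with no overlap and P60 replicate 3 lowest. The rise was 4.75 ± 0.23 on the log2 scale (26.8-fold, edgeR adjusted p = 8.56e-10). Endoneurial cells had 14.4 ± 3.31 CPM at P1, the highest mean of that age with a range overlapping the next group, and 15.2 ± 9.81 CPM at P60, a change that was not called (0.10 ± 0.37, edgeR adjusted p = 0.850). Among vessel cells Stra6 rose in endothelial cells, from 2.20, 1.03 and 2.54 CPM to 10.3, 14.1 and 9.09 CPM (2.55 ± 0.39, edgeR adjusted p = 0.000124). At P60 it measured 14.0 ± 1.34 CPM in the barrier endothelial cells (with the blood-nerve barrier transporters) and 13.1 ± 3.70 CPM in arterial cells, with overlapping ranges, and 2.57 ± 2.35 CPM in the Cd300lg cells. P60 replicate 3 held 31 of the 483 barrier cells and 297 of the 315 Zfp941-led endothelial cells, and without that library the Stra6 change was 2.70 (edgeR adjusted p = 2.34e-06). Perineurial markers summed to 1167 to 1305 CPM in P60 endothelial cells and 118 to 145 CPM at P1, with none of the 8 at 0; the list includes Slc2a1, also a barrier endothelial marker. Without the endothelial parts led by genes of another class the Stra6 change was 2.32 (edgeR adjusted p = 0.000410). In mural cells 4 UMIs at P1 and 2 UMIs at P60 were counted. Epineurial cells had 2 UMIs at P1 and 35 at P60, too few to be tested, giving a ratio of 13.4 (3.44 to 115, 95% exact interval for counting error only). Stra6 (ENSMUSG00000032327) spans 58063788 to 58153996 of chromosome 9, plus strand, with Gm16131 inside it on the same strand and Ccdc33 on the other.

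**Figure D2:**
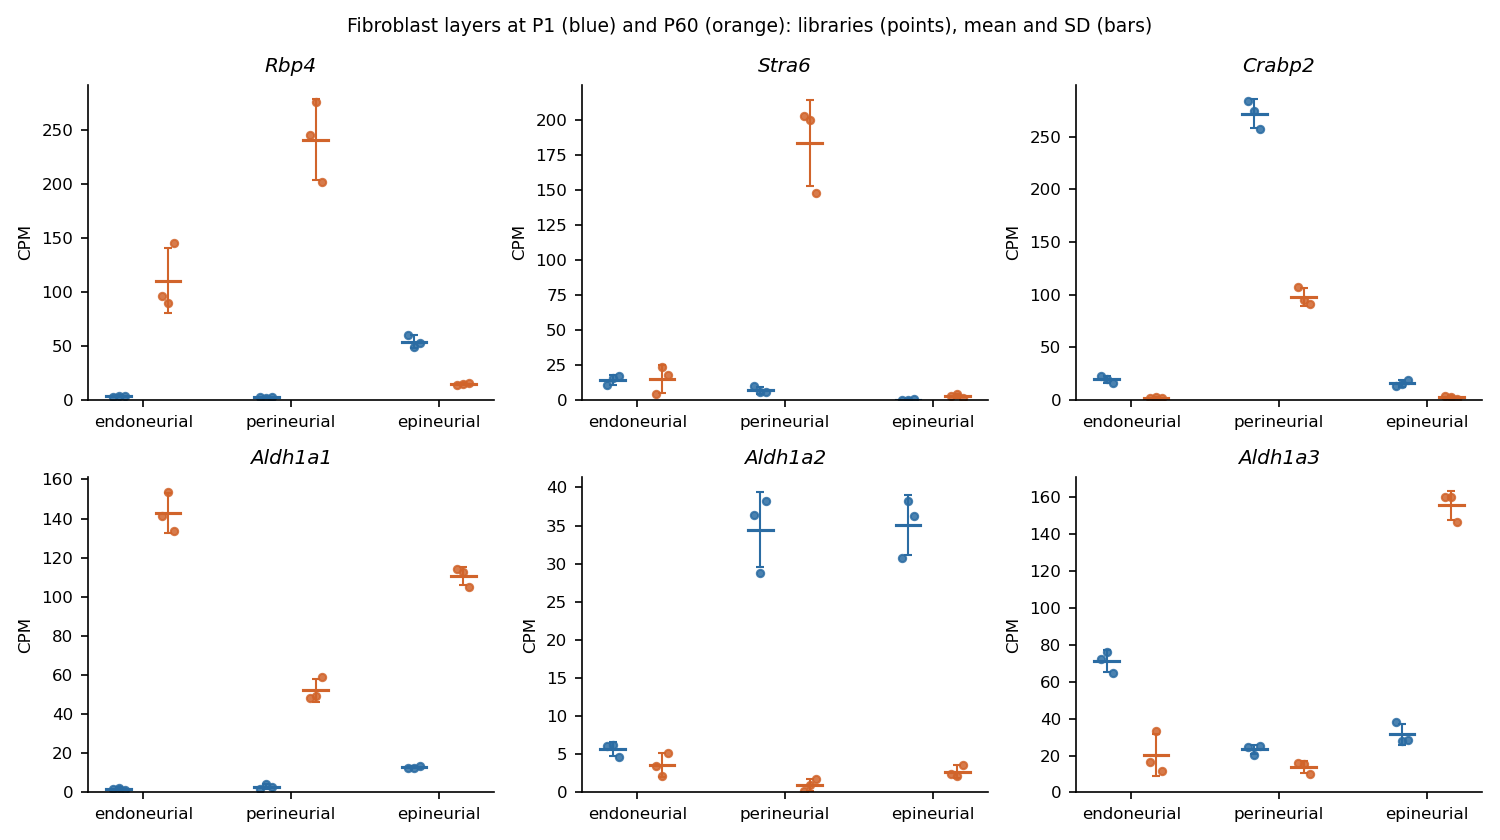
CPM of 6 genes in endoneurial, perineurial and epineurial cells at P1 (blue) and P60 (orange); points are the 3 libraries, the horizontal bar is their mean and the vertical bar the SD. Rbp4 and Stra6 were highest in perineurial cells at P60 (241 and 183 CPM), and Aldh1a3 changed in opposite directions in the endoneurial and epineurial cells.

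The 3 retinaldehyde dehydrogenases, which make retinoic acid, changed with age in different directions. Aldh1a1 was low at P1 (12.9 ± 0.447 CPM in epineurial cells, followed by 2.95 CPM in perineurial cells) and present in many groups at P60. In endoneurial cells it measured 1.93, 2.51 and 1.04 CPM at P1 and 141, 154 and 134 CPM at P60. Epineurial cells held 12.7, 12.6 and 13.4 CPM at P1 and 114, 113 and 105 CPM at P60. Perineurial cells went from 1.69, 4.18 and 2.96 CPM to 48.2, 49.4 and 59.1 CPM. It rose in each of these layers without overlap of the libraries, by 6.37 ± 0.22 in endoneurial, 3.05 ± 0.14 in epineurial and 4.17 ± 0.25 in perineurial cells on the log2 scale (edgeR adjusted p = 2.27e-11, 3.77e-10 and 7.24e-09).

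The highest level of Aldh1a1 was in the non-myelinating Schwann cells of P60, which in mature nerve ensheath small axons in Remak bundles. Their 159 cells held 1021, 788 and 1114 CPM in the 3 libraries, from 73, 62 and 211 UMIs. Myelinating Schwann cells of the same age had 0, 2 and 1 UMIs (6.47 ± 6.83 CPM). The ranges of these groups did not overlap. At P1 the highest mean of a Schwann cell state was 1.17 CPM, in immature cells. After thinning, 69.6% ± 11.5 of non-myelinating Schwann cells had an Aldh1a1 UMI (79.0% unthinned, median 2039 UMIs), against 1.03% ± 0.476 of P60 immune cells (3.30% unthinned, median 3732 UMIs). In the Schwann class as a whole Aldh1a1 rose from 0.794, 0.709 and 0.406 CPM to 278, 218 and 418 CPM (log2 change 8.79 ± 0.34, edgeR adjusted p = 1.54e-08).

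In mural cells Aldh1a1 had 1 UMI at P1 and 58 at P60, with 22.4, 17.5 and 22.3 CPM in the P60 libraries, giving a ratio of 64.4 (11.1 to 2588, 95% exact interval, counting error only; edgeR adjusted p = 2.42e-05). In mural cells perineurial markers summed to 16.4 to 27.5 CPM at P1, with 1 of 8 at 0, and 212 to 254 CPM at P60, and epineurial markers to 158 to 220 and 328 to 549 CPM. Their fibroblast markers went from 2652 to 4003 CPM at P1 to 1226 to 1609 CPM at P60. Without the parts led by genes of another class the mural change was 5.36 (edgeR adjusted p = 5.01e-05). That left 467 mural cells at P1 and all 733 at P60. Without cells of 10 or more UMIs of the fibroblast marker Dcn the Aldh1a1 counts were 0 and 53. The part of the perineurial and epineurial markers in the mural result was not tested. Endothelial cells had 1 UMI at P1 and 69 at P60, 6.88, 8.68 and 4.24 CPM in the P60 libraries, giving a ratio of 38.7 (6.71 to 1549; edgeR adjusted p = 0.000106). Without the parts led by genes of another class the counts were 0 and 40, too few for the endothelial test. Fibroblast markers summed to 1931 to 2647 CPM in endothelial cells at P1 and 1364 to 1652 CPM at P60, with none of the 6 at 0. Perineurial markers summed to 118 to 145 and 1167 to 1305 CPM, and epineurial markers to 684 to 776 and 3214 to 5159 CPM. In P60 barrier endothelial cells the epineurial markers summed to 4518 to 5667 CPM and the fibroblast markers to 402 to 510 CPM. Epineurial cells of P60 held 13749 to 17497 and 20070 to 22194 CPM of these lists, so the epineurial sum alone does not measure epineurial RNA in endothelial cells. The part of these lists in the result was not tested. The other endothelial calls were Rbp4, with 1 UMI at P1 and 75 at P60 and a ratio of 42.0 (7.31 to 1681, counting error only; edgeR adjusted p = 2.72e-05), and Aldh1a3 (1.96 ± 0.44, edgeR adjusted p = 0.00227). Without the parts led by genes of another class Rbp4 had 0 and 35 UMIs and Aldh1a3 5 and 45, below the count filter. Immune cells of P60, with 5961916 UMIs in all, held 54 of Aldh1a1, 52 of Rbp4 and 40 of Aldh1a3. The 69, 75 and 76 UMIs of these genes in P60 endothelial cells were among 10234252. Whether the endothelial values exceed a background level was not tested. Pericytes of P60 had 6.51, 29.7 and 85.1 CPM of Aldh1a1, a spread too wide to rank them.

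Aldh1a1 (ENSMUSG00000053279) spans 20492715 to 20643465 of chromosome 19, plus strand, with C730002L08Rik and Gm6684 on the other strand. Whether the counting used the strand is not given in the sources used here. No stretch of 98 bases within the last 500 bases of the transcripts of any of the 9 genes was shared with another of them or with Aldh1a7, Rara, Rarg, Rxra, Rxrb or Stra6l. The window before a RefSeq start, chr19:20601718-20601967 on the plus strand of GRCm38.p6, holds a half-site 49 bases before the start, read on the opposite strand and shown in capitals.
Aldh1a1: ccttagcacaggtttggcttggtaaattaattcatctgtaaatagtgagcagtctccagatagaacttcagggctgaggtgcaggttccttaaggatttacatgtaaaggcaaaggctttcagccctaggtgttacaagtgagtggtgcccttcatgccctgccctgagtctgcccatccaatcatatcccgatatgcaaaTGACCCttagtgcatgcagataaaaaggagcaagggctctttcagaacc

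Aldh1a2, the main retinoic acid-forming enzyme of the embryo, was a gene of newborn fibroblast-like cells. Its highest level was in the Ifitm1-led cells of P1, at 146, 129 and 112 CPM, above the ranges of epineurial (35.1 ± 3.92 CPM) and perineurial cells (34.5 ± 4.97 CPM), which overlapped each other. In perineurial cells it measured 36.4, 28.8 and 38.2 CPM at P1 and 0.236, 0.908 and 1.79 CPM at P60. In epineurial cells it measured 30.7, 38.2 and 36.3 CPM at P1 and 2.36, 2.13 and 3.65 CPM at P60. It fell in perineurial cells (-5.11 ± 0.33, edgeR adjusted p = 1.61e-08) and in epineurial cells (-3.74 ± 0.23, edgeR adjusted p = 7.07e-09). Endoneurial cells, with 5.63 ± 0.914 CPM at P1 and 3.62 ± 1.55 CPM at P60, did not pass the test (-0.53 ± 0.43, edgeR adjusted p = 0.333). At P60 the highest level was outside the fibroblast-like cells, in the Lyz1-led immune cells (56.8, 59.6 and 68.3 CPM), and the 1389 immune cells held as many Aldh1a2 UMIs (176, or 48.4%) as the 7820 fibroblast-like cells. The gene (ENSMUSG00000013584) lies at 71215789 to 71296243 of chromosome 9, with Gm48124 on the other strand.

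Aldh1a3 was highest among the layers in endoneurial cells at P1 and in epineurial cells at P60. Endoneurial cells held 72.2, 76.4 and 64.9 CPM at P1, the highest range of that age, and 16.6, 33.1 and 11.5 CPM at P60. Epineurial cells held 38.0, 27.9 and 28.7 CPM at P1 and 160, 160 and 147 CPM at P60. It fell in the former (-1.73 ± 0.25, edgeR adjusted p = 4.65e-05) and rose in the latter (2.26 ± 0.14, edgeR adjusted p = 1.03e-08). In perineurial cells it went from 23.4 ± 2.58 to 13.8 ± 3.35 CPM (-0.72 ± 0.21, edgeR adjusted p = 0.0104). The fall depended on which cells were counted, and with the 467 cells without a layer counted as perineurial the change was 1.07 (edgeR adjusted p = 6.55e-05). Leaving out P1 replicate 3 also ended the perineurial call (-0.66, edgeR adjusted p = 0.0520). Aldh1a3 (ENSMUSG00000015134) is on chromosome 7, minus strand, 66390890 to 66427517.

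Crabp1 and Crabp2, the cytosolic binding proteins of retinoic acid, had different cells and the same direction with age in 2 layers. Crabp2, which delivers retinoic acid to the receptors, was highest in perineurial cells at P1, with 284, 274 and 257 CPM, and all 3 libraries lay above every other group of that age. The next groups were proliferating fibroblasts (75.1 CPM) and Ifitm1-led cells (63.3 ± 6.80 CPM), whose ranges did not overlap either. After thinning, 31.9% ± 0.856 of perineurial cells at P1 had a UMI (75.5% unthinned, median 8159.5 UMIs) and 0.191% ± 0.167 of immune cells did (1.08% unthinned, median 6813 UMIs). At P60 perineurial cells held 108, 95.2 and 90.9 CPM, while endoneurial, epineurial and Cxcl14-led cells had means of 2.35, 2.64 and 7.89 CPM. Crabp2 fell in perineurial (-1.45 ± 0.12, edgeR adjusted p = 1.77e-07), endoneurial (-2.97 ± 0.39, edgeR adjusted p = 2.04e-05) and epineurial cells (-2.62 ± 0.30, edgeR adjusted p = 5.21e-06). In endoneurial cells that was from 22.7, 19.6 and 16.7 CPM to 1.75, 3.20 and 2.09 CPM, and in epineurial cells from 13.0, 15.3 and 19.5 CPM to 3.66, 2.84 and 1.40 CPM. Crabp2 (ENSMUSG00000004885) is on chromosome 3, plus strand, 87948666 to 87953376.

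Crabp1 fell with age in epineurial and perineurial cells and was not called in Schwann or endoneurial cells. Epineurial cells of P1 held 33.8, 33.3 and 43.3 CPM, above proliferating Schwann cells (28.9 ± 3.08 CPM) and proliferating fibroblasts (25.1 CPM), which overlapped each other. At P60 epineurial cells held 0.785, 0.237 and 0.281 CPM, from 5 UMIs. The fall was 6.34 ± 0.32 on the log2 scale (edgeR adjusted p = 1.14e-09). In perineurial cells Crabp1 had 52 UMIs at P1 and only 2 at P60, and the ratio was 53.1 (14.0 to 450, counting error only; edgeR adjusted p = 9.10e-07). The endoneurial change was not called (-0.79 ± 0.45, edgeR adjusted p = 0.167), with P60 libraries at 1.75, 14.9 and 3.14 CPM, 1 of which, P60 replicate 2, was above the P1 range of 11.1 to 12.1 CPM. Without P60 replicate 2 it was -2.22 (edgeR adjusted p = 0.00211). Among Schwann cells of P1, Crabp1 measured 14.4 ± 2.56 CPM in the immature state and 0.461 ± 0.798 CPM in the myelinating state. The Schwann class as a whole went from 8.55 ± 0.375 to 12.2 ± 3.79 CPM (0.41 ± 0.36, edgeR adjusted p = 0.378). Non-myelinating Schwann cells of P60 held 69.9, 12.7 and 31.7 CPM, from 5, 1 and 6 UMIs, a mean of 38.1 ± 29.1 CPM whose range spans the P1 epineurial values, and the 154 myelinating cells had none, which with 3 counts over the group allows up to 6.33 CPM. Crabp1 (ENSMUSG00000032291) is on chromosome 9, plus strand, 54764748 to 54773110.

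Rxrg, the gamma retinoid X receptor, followed the Schwann cell states. At P1 it was highest in immature Schwann cells, with 121, 101 and 118 CPM. Proliferating Schwann cells held 62.4, 49.1 and 53.6 CPM, Cdkn1c-led Schwann cells 21.6, 23.8 and 18.3 CPM and myelinating cells 2.79, 1.42 and 2.76 CPM. The ranges of these 4 states did not overlap. At P60 non-myelinating Schwann cells held 350, 165 and 201 CPM and myelinating cells 12.9, 20.4 and 0 CPM, again without overlap. After thinning, 15.2% ± 0.814 of immature cells at P1 (40.7% unthinned, median 5057 UMIs) and 29.0% ± 12.6 of non-myelinating cells at P60 (40.3% unthinned, median 2039 UMIs) had a UMI, against 0.0958% ± 0.166 and 0.205% ± 0.222 of immune cells (1.06% and 0.318% unthinned, medians 6813 and 3732 UMIs). Endoneurial, perineurial, epineurial and endothelial cells had means of at most 2.20 CPM at both ages. In mural cells 2 UMIs were counted at P1 and 19 at P60 (11.2, 11.6 and 2.79 CPM), too few to be tested, giving a ratio of 10.6 (2.55 to 93.4, counting error only). Without P60 replicate 3 the mural change was tested and called (3.96, edgeR adjusted p = 0.000621). So was its excess over the endothelial change (5.36, edgeR adjusted p = 0.00799). The mural change was also called without P1 replicate 2 (edgeR adjusted p = 0.0242). It was not called without P1 replicate 1 or 3 (edgeR adjusted p = 0.0635 and 0.0763). In the Schwann class as a whole Rxrg was 49.9, 39.0 and 44.0 CPM at P1 and 93.6, 44.7 and 81.7 CPM at P60, with overlapping ranges (0.63 ± 0.21, edgeR adjusted p = 0.0224). That call was lost without P1 replicate 2 or 3 (edgeR adjusted p = 0.0806 and 0.0621) and without P60 replicate 1 or 3 (0.31 and 0.46, edgeR adjusted p = 0.307 and 0.168). It was also lost with counts scaled to a total of 100000 in the clustering (0.49, edgeR adjusted p = 0.0580).

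**Figure D3:**
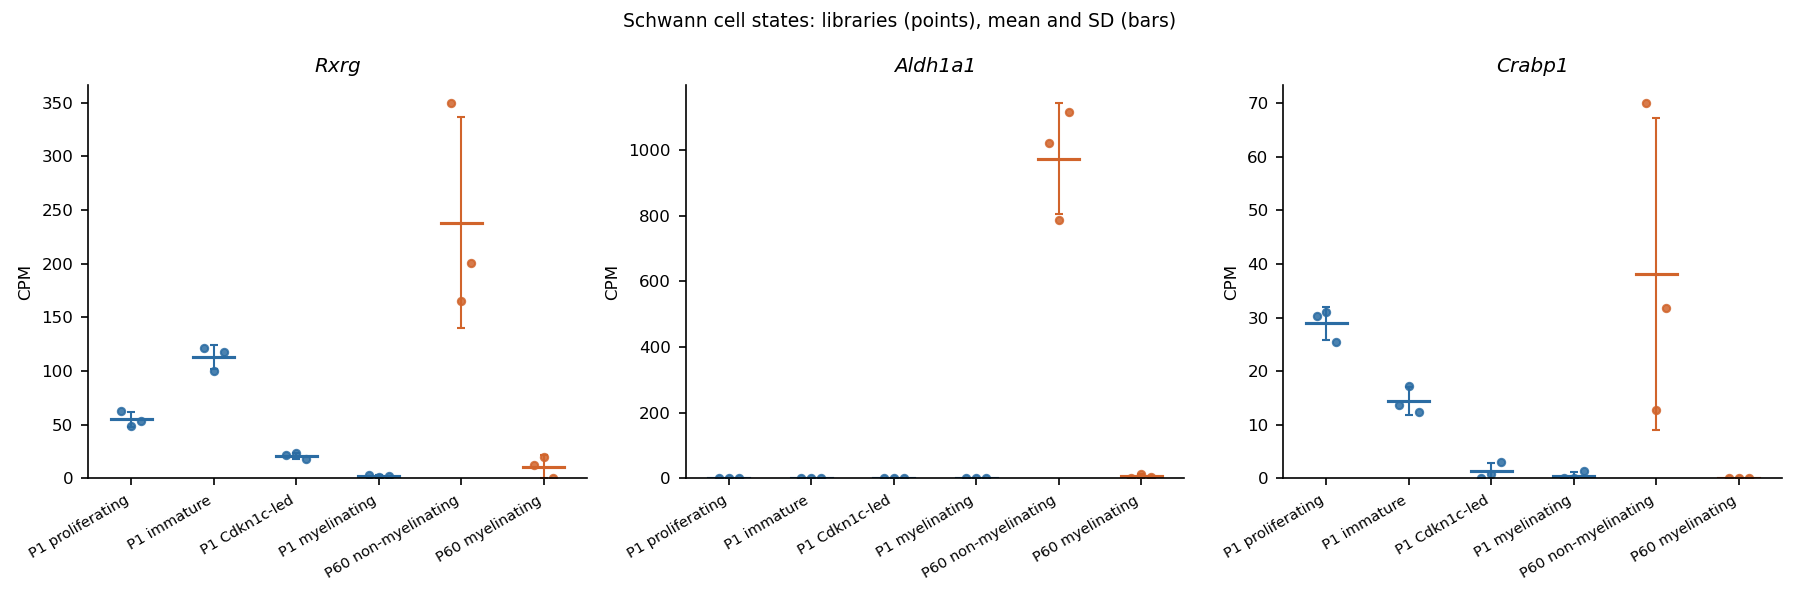
CPM of Rxrg, Aldh1a1 and Crabp1 in the Schwann cell states at P1 (blue) and P60 (orange); points are the 3 libraries, the horizontal bar is their mean and the vertical bar the SD. Rxrg was highest in immature (113 CPM) and non-myelinating (238 CPM) cells, and Aldh1a1 reached 974 CPM in the latter and at most 6.47 CPM on average in the other 5 states.

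Rarb, the beta retinoic acid receptor and itself a textbook target of retinoic acid, was low and widespread. Group means at P1 reached at most 18.6 CPM, in proliferating Schwann cells, and the ranges of the leading groups overlapped. At P60 perineurial cells had the highest mean, with 22.9, 19.8 and 19.2 CPM, a range overlapped by pericytes (17.6 CPM, 0 to 35.8) and lymphatic endothelial cells (15.2 CPM, 5.63 to 27.0). They had held 10.2, 11.2 and 13.0 CPM at P1, and the rise passed the test (0.87 ± 0.19, edgeR adjusted p = 0.00158). In endoneurial cells Rarb went from 11.1, 14.1 and 11.5 CPM to 4.38, 6.41 and 8.37 CPM (-0.87 ± 0.31, edgeR adjusted p = 0.0355), a call that was lost without P1 replicate 2 or 3 and without P60 replicate 1 or 2 (edgeR adjusted p from 0.0526 to 0.151). The endoneurial call was also lost under DESeq2 (-0.88, DESeq2 adjusted p = 0.0844). The changes in Schwann (0.03 ± 0.36), epineurial (0.51 ± 0.27) and mural cells (0.12 ± 0.48) were not called (edgeR adjusted p = 0.958, 0.133 and 0.867).

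The window before the RefSeq start of Rarb (ENSMUSG00000017491, chromosome 14, 16430839 to 16819156, minus strand, with Top2b and Gm48162 on the other strand) is shown because it was the 1 window of the 13 with a direct repeat of half-sites. Half-sites were joined by 1, 2 or 5 bases of any kind, and repeats of these kinds were found in 0.164%, 0.174% and 0.0883% of all 32851 windows on either strand. The repeat of Rarb had a spacer of 5 bases (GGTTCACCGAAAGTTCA) and lay 53 to 37 bases before the start. A match of letters is a description and not a measured binding site. The capitals mark the half-sites in the windows of both receptors, chr14:16575477-16575726 (minus strand) for Rarb and chr1:167618015-167618264 (plus strand) for a start of Rxrg (ENSMUSG00000015843, chromosome 1, 167598384 to 167639623), which held 2 half-sites that do not form such a repeat.
Rarb: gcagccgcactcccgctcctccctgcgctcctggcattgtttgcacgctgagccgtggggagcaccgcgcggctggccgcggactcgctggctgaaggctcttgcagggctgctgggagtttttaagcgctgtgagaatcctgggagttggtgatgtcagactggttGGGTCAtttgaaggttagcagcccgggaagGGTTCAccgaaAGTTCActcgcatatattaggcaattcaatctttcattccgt
Rxrg: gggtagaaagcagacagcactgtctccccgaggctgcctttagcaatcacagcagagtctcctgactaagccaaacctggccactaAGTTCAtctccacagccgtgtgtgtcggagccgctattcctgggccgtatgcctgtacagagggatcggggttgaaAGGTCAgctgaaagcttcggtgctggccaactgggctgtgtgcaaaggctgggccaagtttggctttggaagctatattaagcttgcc

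In perineurial cells 8 of the 9 genes had counts to be tested and 8 were called, 4 up and 4 down, against 54.2% of the 11358 genes tested there. In epineurial cells 6 of 7 were called (2 up, 4 down) against 45.8%, and in endoneurial cells 5 of 8 (2 up, 3 down) against 46.3%. The median log2 change over the genes tested was 0.08, -1.93 and -0.66 in these layers, against 0.02, -0.00036 and 0.01 over all genes. With so few genes these counts are a description. Of all genes, 27.5% rose and 26.7% fell in perineurial, 23.1% and 22.7% in epineurial and 23.5% and 22.8% in endoneurial cells. In endothelial cells 4 of 4 were called, all up (40.1% of all genes called, 20.9% up and 19.2% down). Without the endothelial parts led by genes of another class only 1, Stra6, was called, and Aldh1a1, Rbp4 and Aldh1a3 were below the count filter. In mural cells 1 of 2 was called, up (35.2% of all genes, with 18.8% up and 16.4% down).

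In Schwann cells 6 of 8 were called, all up, against 47.6% of all genes, 25.1% upward and 22.5% downward. These were Aldh1a1, Rxrg, Crabp2 (2.02 ± 0.36), Aldh1a3 (2.40 ± 0.46), Rbp4 (5.33 ± 1.15) and Stra6 (6.30 ± 0.47). Fibroblast markers moved with the last 4. The 6 fibroblast markers summed to 5285 to 5583 CPM in the Schwann class at P1 and 5622 to 9890 CPM at P60, the 8 perineurial markers to 48.1 to 53.0 CPM and 804 to 850 CPM, and none was at 0. At P60 the class held 105 cells with markers of other classes and 25 Perp-led cells with perineurial markers (3977 to 5915 CPM). Without these 130 cells Crabp2 (-0.16, edgeR adjusted p = 0.903) and Aldh1a3 (0.59, edgeR adjusted p = 0.637) were not called and Rbp4 (2 UMIs) and Stra6 (5 UMIs) had too few counts. Aldh1a1 (9.20, edgeR adjusted p = 3.30e-08) and Rxrg (1.06, edgeR adjusted p = 0.000294) were the 2 genes called in the remaining 313 cells. Immature cells were 1013 of the 3210 Schwann cells at P1, and non-myelinating cells 159 of these 313 at P60. The part of this mix of states in the class changes was not tested.

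**Figure D4:**
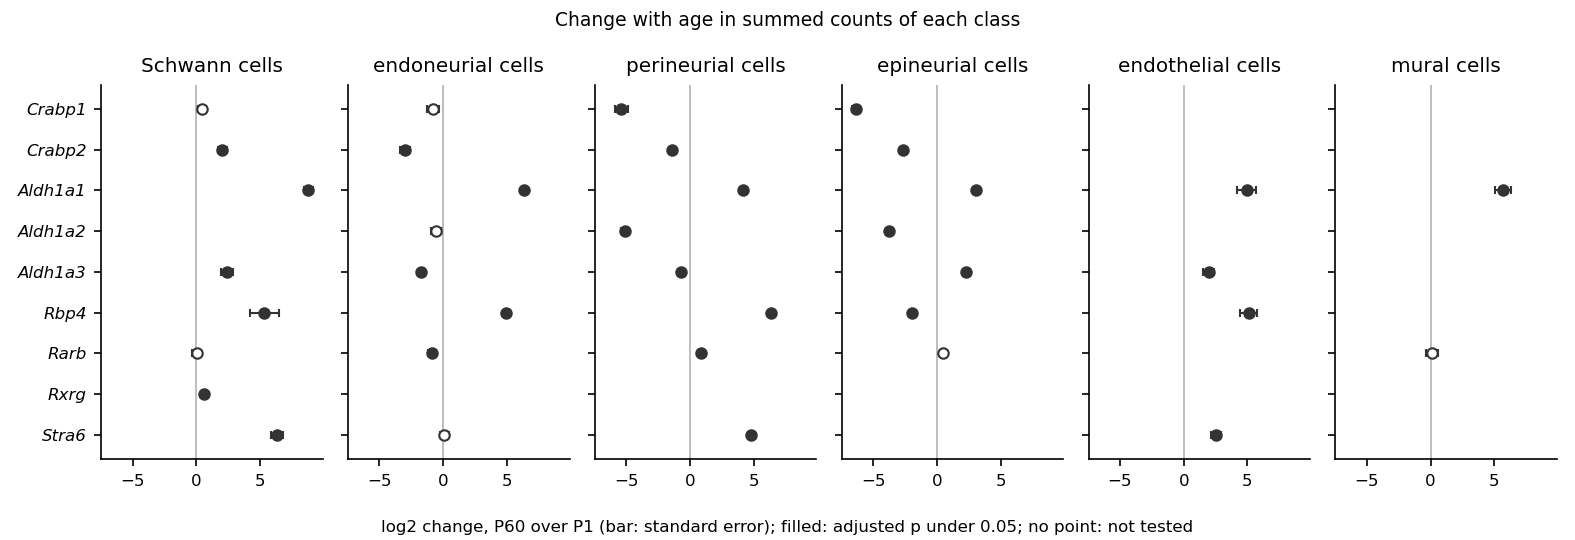
Log2 change from P1 to P60 of the genes tested in each class, with the edgeR standard error as a bar; filled points passed an adjusted p of 0.05 and genes without a point had too few counts. Aldh1a1 was to the right of 0 in all 6 classes, and Crabp1 and Aldh1a2 were to the left in perineurial and epineurial cells.

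Whether the layers differed in their change was tested with the interaction of class and age, with the library as a block. Between endoneurial and epineurial cells 7 of the 8 genes tested differed, against 32.9% of 12391 genes. The epineurial minus the endoneurial change was -6.81 ± 0.22 for Rbp4 and 4.06 ± 0.19 for Aldh1a3 (edgeR adjusted p = 3.48e-55 and 7.59e-30). The test shares the spread over genes, so p-values this small do not measure the spread between 3 libraries per age alone. Both genes changed in opposite directions in these layers, but with the cells without a layer counted as epineurial the epineurial Rbp4 change was 0.43 (edgeR adjusted p = 0.0612) and the difference -4.45 (edgeR adjusted p = 0.00246). Crabp2, which fell in both, did not pass the test of the difference (0.39 ± 0.62, edgeR adjusted p = 0.683). Between Schwann and endoneurial cells 4 of 9 differed against 25.6% of all genes, and between endothelial and mural cells none of 4 was called by edgeR (0 of 4, with Stra6 at an unadjusted p = 0.0359) against 19.3%.

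Of 49 other genes of retinoid carriers, enzymes, receptors and responsive genes, 27 had counts to be tested in Schwann cells, 28 in endoneurial, 28 in perineurial, 29 in epineurial, 29 in endothelial and 21 in mural cells. Upward and downward calls numbered 14 and 4 in Schwann, 8 and 9 in endoneurial, 13 and 5 in perineurial, 5 and 9 in epineurial, 9 and 5 in endothelial and 7 and 3 in mural cells. Together that was 18 of 27 in Schwann cells, where 47.6% of all genes were called, 17 of 28 in endoneurial (46.3%), 18 of 28 in perineurial (54.2%), 14 of 29 in epineurial (45.8%), 14 of 29 in endothelial (40.1%) and 10 of 21 in mural cells (35.2%). Fabp5, which binds retinoic acid in the route to PPARD, was among the falling genes of several classes. In mural cells Fabp5 went from 1311 ± 46.5 to 27.3 ± 14.8 CPM (-5.55 ± 0.25, edgeR adjusted p = 1.29e-07), in epineurial cells from 164 ± 10.9 to 7.77 ± 4.24 CPM (-4.41 ± 0.26, edgeR adjusted p = 9.81e-08) and in perineurial cells from 70.1 ± 6.35 to 9.70 ± 1.55 CPM (-2.80 ± 0.17, edgeR adjusted p = 1.06e-08). In Schwann cells it went from 546 ± 6.46 to 201 ± 29.7 CPM (-1.52 ± 0.14, edgeR adjusted p = 3.87e-07).

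Enzymes of retinol and retinaldehyde were among the rising genes. Adh7, a retinol-oxidising alcohol dehydrogenase, rose in perineurial cells from 1.66 ± 0.395 to 40.5 ± 3.53 CPM (4.60 ± 0.25, edgeR adjusted p = 3.57e-09) and in epineurial cells from 1.08 ± 0.611 to 47.0 ± 11.8 CPM (5.31 ± 0.33, edgeR adjusted p = 1.03e-08). It had no UMI at P1 and 27 at P60 in Schwann cells, with 7.80, 38.6 and 9.28 CPM in the P60 libraries. Of those 27 UMIs, 16 were in cells with markers of other classes, 10 in Perp-led cells, 1 in non-myelinating and 0 in myelinating cells. Endothelial cells had 0 and 73 Adh7 UMIs, at least 13.6-fold higher when 3 counts over the P1 libraries stand for 0, and 46 of the 73 were in arterial cells. Lrat, which esterifies retinol for storage, had 2 UMIs at P1 and 117 at P60 in perineurial cells, giving a ratio of 28.6 (7.75 to 239, counting error only). Cyp26b1, which degrades retinoic acid, rose in endoneurial cells from 2.70 ± 1.29 to 80.0 ± 11.5 CPM (4.91 ± 0.23, edgeR adjusted p = 5.69e-10), and Dhrs3, which reduces retinaldehyde back to retinol, rose there from 6.40 ± 0.854 to 64.8 ± 18.3 CPM (3.43 ± 0.24, edgeR adjusted p = 3.59e-08). Adh1 rose in Schwann cells from 0.745 ± 0.458 to 30.6 ± 13.2 CPM (5.25 ± 0.49, edgeR adjusted p = 2.76e-07) and in endothelial cells from 3.13 ± 0.812 to 29.7 ± 6.96 CPM (3.25 ± 0.31, edgeR adjusted p = 9.88e-07). Of its 43 Schwann UMIs at P60, 39 were in cells with markers of other classes. Bco2, a carotenoid-cleaving enzyme, had 1 UMI at P1 and 90 at P60 in epineurial cells, giving a ratio of 69.0 (12.1 to 2754, counting error only).

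Rarres1, named as a retinoic acid receptor responder, fell in perineurial cells from 202 ± 12.6 to 5.39 ± 0.808 CPM (-5.18 ± 0.16, edgeR adjusted p = 1.85e-11), in endoneurial cells from 118 ± 7.06 to 37.8 ± 8.79 CPM (-1.55 ± 0.17, edgeR adjusted p = 3.60e-06), in epineurial cells from 11.2 ± 2.77 to 1.12 ± 0.513 CPM (-3.32 ± 0.37, edgeR adjusted p = 4.13e-06) and in endothelial cells from 38.9 ± 4.61 to 3.38 ± 1.46 CPM (-3.44 ± 0.26, edgeR adjusted p = 1.18e-07). Rdh13 fell in endothelial cells from 10.4 ± 3.91 to 3.55 ± 0.290 CPM (-1.53 ± 0.34, edgeR adjusted p = 0.00228). In mural cells Rarres2 rose from 301 ± 9.95 to 617 ± 108 CPM (1.19 ± 0.13, edgeR adjusted p = 2.03e-05) and Tgm2 from 9.47 ± 3.49 to 222 ± 125 CPM (4.77 ± 0.61, edgeR adjusted p = 0.00157). The P60 libraries held 177, 127 and 363 CPM of Tgm2, with P60 replicate 3 highest. That library held 160 of the 182 Atf3-led, 59 of the 72 AC156163.1-led and 56 of the 67 Itga5-led mural cells. The part of these cells in the mural changes was not tested. Ttr, the partner of RBP4 in plasma, was counted in endoneurial cells with 216 UMIs at P1 and 2 at P60, giving a ratio of 25.4 (6.94 to 211, counting error only).

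The genes whose pattern was most like that of a member were found by Pearson correlation of log2(CPM + 10) over the means of 39 cell groups of both ages, among 11576 genes. The groups share libraries and the correlations carry no test. Rxrg was followed most closely by Mmd2 (r = 0.97), Gm2115 (0.94) and the adhesion gene Chl1 (0.94), a marker used to name immature and non-myelinating Schwann cells. Crabp2 was followed by Klf5 (0.93), the tight junction gene Cldn1 (0.92) and Cxadr (0.89), and Stra6 by Pcp4 (0.92), Mpzl2 (0.92) and the potassium channel gene Kcnj13 (0.92). Cldn1 and Mpzl2 are among the perineurial markers. The others were lower, between 0.73 and 0.87. They were F3, C4b and Csmd1 for Aldh1a1, Cpz, Klf14 and Arsj for Aldh1a2, Clic6, Lgi3 and Slc4a4 for Aldh1a3, Medag, Il33 and Bdh2 for Rbp4, Gpsm2, Epha7 and Fxyd7 for Crabp1 and Hspa13, Irak1bp1 and Hoxc4 for Rarb.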

How the data were processed

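The deposited files hold raw UMI counts per gene and cell barcode, made by the authors with Cell Ranger 2.0.2 against GRCm38.p5 per the labels (the study's methods name a human build, while the gene identifiers are mouse). Strand use in counting is not given in the sources used here. Cells with 500 to 5000 genes were kept, and doublets were removed only in an alternative. Clustering used Seurat 5.3.0 (total 10000, 10 principal components, 30 neighbours, resolution 0.5 at P1, 0.4 at P60 and 0.3 for reclustering) with the 58 retinoid genes kept out of the variable genes. Clusters were named from marker lists. The members and lists were chosen with earlier results of these data known, and naming thresholds were set after the data were seen. UMIs were summed per library and class and P60 was compared with P1 by edgeR 4.0.16 (quasi-likelihood test, TMM scaling, filter on low counts, Benjamini-Hochberg adjustment). Differences between classes were tested as an interaction with the library as a block. The tests were tried on simulated counts with known changes. With 3 libraries against 3, an exact permutation test could not go below p = 0.1. Shares of cells used cells thinned to 1500 UMIs. All 9 members are named; of the other retinoid genes, the 2 with the largest rise and the 2 with the largest fall among those called in each class are named, and the 3 genes of highest correlation with each member among genes reaching 20 CPM in a group, except that some items are not reported here. Alternatives were DESeq2 1.42.0, library size alone, no filter, each library left out, a replicate block, cells under 10% mitochondrial counts, the highest Scrublet scores (scanpy 1.11.5) left out, cells with 10 or more Dcn UMIs left out, a total of 100000 in the clustering, the retinoid genes kept as variable genes, and, chosen after seeing the data, other assignments of clusters without a layer and classes without the parts led by genes of another class.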

Additional observations from a re-analysis of the deposited data

Results flagged for a closer look

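In 11 cases the change of a gene with age differed between 2 classes by the edgeR interaction test. In the epineurial minus the endoneurial cells the difference was -5.60 for Crabp1, -3.27 for Aldh1a1, -3.12 for Aldh1a2, 4.06 for Aldh1a3, -6.81 for Rbp4, 1.44 for Rarb and 3.40 for Stra6 on the log2 scale (edgeR adjusted p from 3.48e-55 to 0.00441). Rbp4 and Aldh1a3 changed in opposite directions in the 2 layers, each past its own test. With the cells without a layer counted as epineurial, the epineurial Rbp4 change was 0.43 (edgeR adjusted p = 0.0612), the same direction as in endoneurial cells, and the difference -4.45 (edgeR adjusted p = 0.00246). Leaving out 1 library moved the Stra6 difference between 2.84 and 5.90, the latter without P1 replicate 3, with 2 epineurial UMIs at P1 in all. The Crabp1 difference lay between -6.78 and -3.81, the latter without P60 replicate 2. In the endoneurial minus the Schwann cells the difference was -4.99 for Crabp2, -2.42 for Aldh1a1, -4.14 for Aldh1a3 and -6.14 for Stra6 (edgeR adjusted p from 9.44e-15 to 0.0108). Aldh1a1 lost its call without P1 replicate 2 (-2.21, edgeR adjusted p = 0.0929). Fibroblast and perineurial markers moved with the Schwann values of Crabp2, Aldh1a3 and Stra6. Without the 130 cells led by genes of other classes Aldh1a3 was at -2.46 (edgeR adjusted p = 0.0556). Crabp2 was then at -2.98 and Stra6 at -4.005 (edgeR adjusted p = 0.0395 and 0.00195), both smaller in size. Aldh1a1 was at -2.84 (edgeR adjusted p = 0.000454).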

How the results depend on the processing

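Of 30 age changes of the 9 genes that were called, 19 had a value and kept their direction and their call under every alternative. Direction or call was not kept by 6, and 5 fell under the count filter in at least 1 alternative. Of 11 differences between classes, 9 kept theirs. The cause of these shifts was not tested. Members called fell from 6 to 2 in Schwann cells when cells with 10 or more Dcn UMIs, or the parts led by genes of another class, were left out, and from 4 to 1 in endothelial cells under both and without the highest Scrublet scores. Mural cells had 2 members called with no filter. Leaving out 1 library gave 3600 to 5482 genes called in Schwann cells (5490 with all; 3600 without P1 replicate 2 and 3647 without P1 replicate 3), 1 to 2 members called in mural cells (2 without P1 replicate 2 or P60 replicate 3) and 0 to 1 between endothelial and mural cells (1 without P1 replicate 1, P1 replicate 3 or P60 replicate 3, and 1 with no filter). Pairs of gene and cell group with a UMI in at least 1% of cells were 111 after thinning and 201 without it, and 13 of 27 similar genes were shared with log2(CPM + 1). Directions turned as follows. Schwann Rarb, not called, was -0.023 under DESeq2, -0.15 with no filter, -0.056 in cells under 10% mitochondrial counts and also without the highest Scrublet scores, -0.37 without Dcn-rich cells, -0.031 with retinoid genes kept and -0.70 without the parts led by other classes, where Crabp2 was -0.16; without 1 library Rarb ranged down to -0.25 (-0.0016 at the least). Perineurial Aldh1a3 became 1.07 and epineurial Rbp4 0.43 with clusters lacking a layer counted in. Endoneurial Stra6 ranged from -0.41 to 0.56 without 1 library (-0.086, -0.41 and -0.040 without P1 replicate 1, P60 replicate 2 and P60 replicate 3). Mural Rarb was -0.066 under library size alone, -0.086 with a total of 100000, and -0.35 to 0.43 without 1 library (-0.35 and -0.17 without P1 replicate 3 and P60 replicate 3). Between endoneurial and epineurial cells Crabp2 ranged from -0.13 to 0.68. Between Schwann and endoneurial cells Rxrg ranged from -1.30 to 0.042, Aldh1a2 from -1.47 to 3.74 and Rbp4 from -1.31 to 1.46 (0.10 without P1 replicate 3), and without the parts led by other classes Aldh1a2 was 3.98 and Rbp4 3.84 (edgeR adjusted p = 0.000142); Aldh1a1 lost its call without P1 replicate 2 (edgeR adjusted p = 0.0929). Between endothelial and mural cells Stra6 ranged from -3.68 to 0.88, Aldh1a1 from -1.27 to 4.16 (-0.29 without the parts led by other classes) and Rbp4 from -4.83 to 1.51. With library size as the only scaling the median change over all genes was 0.12 in Schwann and -0.16 in mural cells, where 40.0% of the calls were then higher at P60 against 53.5%. Same-numbered libraries of the 2 ages correlated at 0.0149, 0.159 and 0.0268, so the numbers were not taken as pairs, and only P1 replicates 2 and 3 correlated best with their own number. With the replicate block 4816 genes and 6 members were called in Schwann, 4722 and 4 in endoneurial (Rarb lost, edgeR adjusted p = 0.0507), 6388 and 8 in perineurial, 5403 and 6 in epineurial, 4548 and 4 in endothelial and 2733 and 1 in mural cells. Counts of a few UMIs limit Stra6 in epineurial and Rxrg in mural cells, which were tested only under some alternatives.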
